A study of Mus musculus with 20 samples.

Results

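A set of 10 genes of the Bcl2 family was followed across the histone marks of blood progenitors. The proteins of this family meet at the outer membrane of the mitochondrion and decide whether it opens, which commits the cell to apoptosis. BCL-2 (Bcl2), BCL-XL (Bcl2l1), MCL-1 (Mcl1) and A1 (Bcl2a1b) keep the membrane closed and are called survival genes here. BAX (Bax) and BAK (Bak1) form the pore, and the BH3-only proteins BIM (Bcl2l11), BID (Bid), PUMA (Bbc3) and NOXA (Pmaip1) trigger it, so these are called death genes. Blood stem and progenitor cells are known to depend on MCL-1, and PUMA and NOXA are known targets of p53.

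The 10 genes, 4 for survival and 6 for death, were taken by name and make up 10 of the 21938 protein-coding genes of the annotation. A peak was counted for a gene when it overlapped the gene body extended by 30 kb on both sides, and no peak fell in the windows of more than 1 gene. By this rule 72 of the 29659 H3K27ac peaks of WT cells lay at the 10 genes, 63 of 22727 in Ep300Δ/Δ, 65 of 24539 in Tet2-/- and 46 of 18327 in Ep300Δ/ΔTet2-/- cells. The corresponding counts were 225, 179, 197 and 183 of 107392, 90738, 98069 and 93465 H3K4me1 peaks. For H3K4me3 they were 38, 41, 41 and 43 of 26289, 25012, 27807 and 27268 peaks. Many of these peaks are promoters of neighboring genes, such as Tpx2 near Bcl2l1, Adamtsl4 near Mcl1 and Ftl1 near Bax.

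ChIP-Seq was done on lineage-negative (Lin-) bone marrow cells, the fraction rich in stem and progenitor cells, at a labelled purity of more than 80%. WT mice carried Ep300 fl/fl without Cre, Ep300Δ/Δ mice carried Mx1-Cre and Ep300 fl/fl, Tet2-/- mice carried Ep300 fl/fl and the Tet2 deletion, and Ep300Δ/ΔTet2-/- mice carried all 3. Ep300 encodes the acetyltransferase p300, which with its relative CBP acetylates H3K27, and Tet2 encodes an enzyme that oxidizes 5-methylcytosine. Mice of all 4 groups were C57BL/6 and received poly(I:C), 3 doses of 10 µg/g from 6 to 8 weeks of age. The interferon response that switches on Mx1-Cre was thus shared by the controls. The study used mice of both sexes, and the methods do not state the sex behind each library. Mx1-Cre also deletes outside the Lin- fraction, the methods give 2 weeks after poly(I:C) as their usual time and name none for these libraries, and peak lists cannot show whether Ep300 or Tet2 was deleted.

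Each genotype and mark has 1 library. No difference between genotypes could therefore be set against a spread between mice, no P values were computed, and fewer acetylated cells cannot be told apart from less acetylation per cell. Intervals are exact 95% Clopper-Pearson intervals that cover counting error only, and neighboring peaks of 1 gene are not independent. The depth of the libraries is unknown. A region within 3000 bp of a transcript start counted as a promoter region, and all others are called distal. The promoters of 8 progenitor genes had H3K4me3 in 8 of 8 cases in every genotype and H3K27ac in 7, 7, 6 and 6 cases, in the order WT, Ep300Δ/Δ, Tet2-/- and Ep300Δ/ΔTet2-/-. Of 8 genes of mature lineages 4, 2, 1 and 2 had an acetylated promoter, and 4, 3, 3 and 3 had H3K4me3 there. Of 4 genes used outside blood none had an acetylated promoter, and 1 had H3K4me3 in every genotype. The part of the mature genes in the differences below was not tested.

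Within 30 kb of the 10 genes the acetylated regions were lost at about the rate of the whole lists. A region was called lost when the 2 lists compared were merged and no peak of the second list overlapped it by at least 1 bp, and gained in the opposite case. From WT to Ep300Δ/Δ 30 of 71 H3K27ac regions at the 10 genes were lost, 42.3% (95% interval 30.6 to 54.6), against 39.7% of all H3K27ac regions. From Tet2-/- to Ep300Δ/ΔTet2-/- 27 of 63 were lost, 42.9% (30.5 to 56.0), against 37.8% of all. Gains were fewer, with 6 of 47 regions (12.8%, against 12.8% of all) after Ep300 deletion alone and 3 of 39 (7.69%, against 15% of all) after Ep300 deletion in Tet2-/- cells. Loss of Tet2 removed 21 of 70 regions from WT (30%, against 35.6% of all) and 23 of 58 regions from Ep300Δ/Δ cells (39.7%, against 31.2% of all), and added 8 of 57 (14.0%, against 20.3%) and 6 of 41 (14.6%, against 18.5%). In each of these 8 comparisons, with promoter and distal regions pooled, the interval at the 10 genes held the percentage of the whole lists. Split by place, loss of Tet2 from WT removed 9 of 37 promoter regions (24.3%, against 24.1% of all) and 12 of 33 distal regions (36.4%, 20.4 to 54.9), just below the 55.3% of all distal regions. From Ep300Δ/Δ cells it removed 12 of 36 promoter regions (33.3%, against 24.2%) and 11 of 22 distal regions (50%, against 51.6%).

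Survival and death genes did not separate in these totals. From WT to Ep300Δ/Δ the survival genes lost 11 of 23 regions (47.8%, interval 26.8 to 69.4) and the death genes 19 of 48 (39.6%, 25.8 to 54.7). From Tet2-/- to Ep300Δ/ΔTet2-/- the survival genes lost 8 of 21 (38.1%, 18.1 to 61.6) and the death genes 19 of 42 (45.2%, 29.8 to 61.3). The intervals of the 2 groups overlapped in both steps. Split by place, the first step took 6 of 12 promoter regions near survival genes (50%, 21.1 to 78.9) and 8 of 26 near death genes (30.8%, 14.3 to 51.8), against 26.5% of all promoter regions. The second step, with the opposite order, took 1 of 8 promoter regions near survival genes (12.5%, 0.316 to 52.7) and 11 of 27 near death genes (40.7%, 22.4 to 61.2), against 26.8% of all promoter regions, and the intervals overlapped in both steps. Distal regions were lost in 5 of 11 cases (45.5%) near survival and 11 of 22 (50%) near death genes in the first step, against 62.5% of all distal regions, and in the second in 7 of 13 cases (53.8%) near survival genes and 8 of 15 (53.3%) near death genes, against 61.9% of all distal regions.

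**Figure D1:**
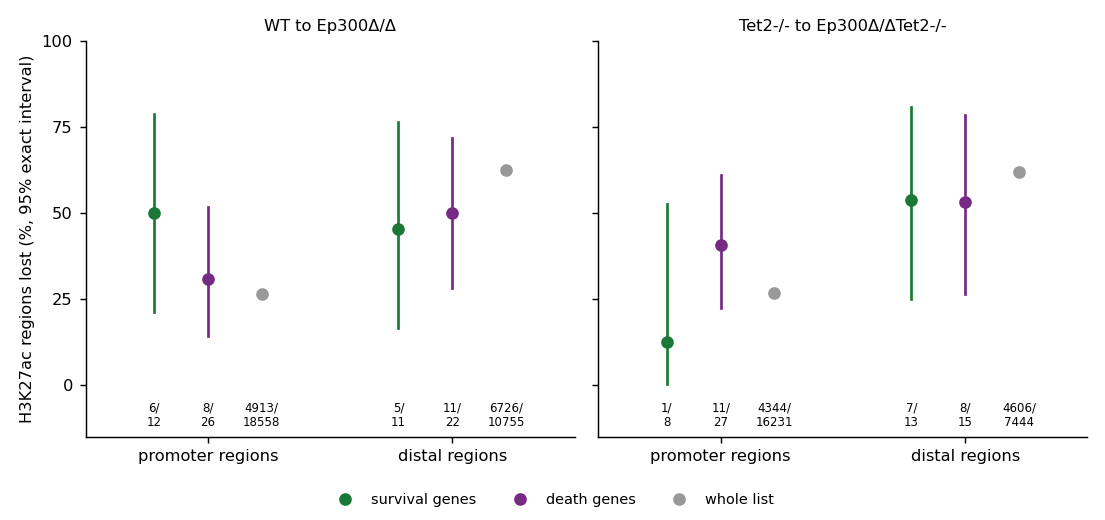
Percentage of H3K27ac regions lost after Ep300 deletion, on the vertical axis, in WT (left) and Tet2-/- cells (right), for promoter and distal regions. Points are percentages for survival genes, death genes and the whole lists, bars are 95% exact intervals, and the counts of lost and all regions stand below. The widest apart are promoter regions on the right, with 12.5% of 8 near survival and 40.7% of 27 near death genes, whose intervals overlap.

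The number of H3K27ac peaks differed by gene, and since several peaks of one list can lie in 1 merged region, it need not follow the number of regions. The 3 acetylated survival genes held 24, 21, 21 and 18 peaks and the 6 death genes 48, 42, 44 and 28, in the order WT, Ep300Δ/Δ, Tet2-/- and Ep300Δ/ΔTet2-/-. Mcl1 had the most among survival genes, with 12, 13, 11 and 11 peaks, and 6 of its 12 regions merged over the 4 lists were present in all. Bcl2 fell from 7 peaks in WT to 2 in Ep300Δ/Δ and had 4 in both Tet2-/- and Ep300Δ/ΔTet2-/- cells. Bcl2l11 had 8, 6, 6 and 1 peaks and Pmaip1 11, 11, 9 and 5. These 2 genes held most of the drop among death genes in Ep300Δ/ΔTet2-/- cells. The whole H3K27ac list dropped as well, from 29659 peaks in WT and 24539 in Tet2-/- to 18327 in Ep300Δ/ΔTet2-/- cells. Bbc3 had 10, 9, 11 and 10 peaks and Bax 6, 6, 6 and 4. Bid had 7 peaks in both WT and Ep300Δ/Δ cells, yet 6 of its 7 WT regions were lost (85.7%, interval 42.1 to 99.6, against 39.7% of all), and 6 of the 7 Ep300Δ/Δ peaks lay within the broad promoter region. Bcl2 also lost 6 of 7 regions in this step. Of 226 such percentages for single genes, over all marks and steps and both directions, 8 had an interval that left out the value of the whole list.

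**Figure D2:**
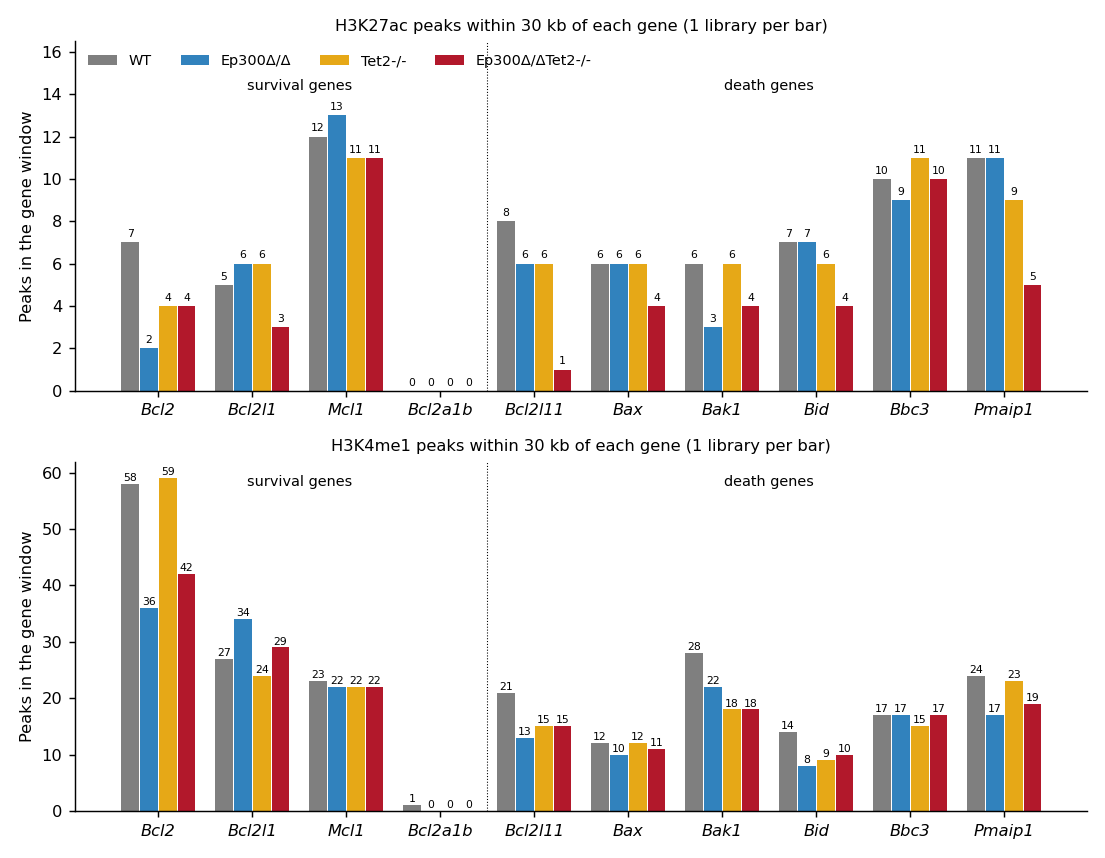
Number of H3K27ac peaks (top) and H3K4me1 peaks (bottom) within 30 kb of each gene, 1 bar per library, colored by genotype. Bcl2l11 falls to 1 H3K27ac peak in Ep300Δ/ΔTet2-/- cells, where it has 15 H3K4me1 peaks. Bcl2 has fewer H3K4me1 peaks in both genotypes without Ep300, at 36 and 42, than with it, at 58 and 59. The whole H3K4me1 lists also hold fewer without Ep300, at 90738 and 93465, than with it, at 107392 and 98069.

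In the lists as called, promoter acetylation was kept at the 3 marked survival genes in every genotype. Among the 10 genes 9 promoters carried an H3K27ac peak in WT, Ep300Δ/Δ and Tet2-/- cells and 7 did in Ep300Δ/ΔTet2-/- cells. None of the 9 lost its acetylation from WT to Ep300Δ/Δ, where 7.96% of acetylated coding promoters did. With only peaks of at least 5 in −log10 q, 2 of 8 were lost in this step, Bcl2 and Bcl2l11. The 2 lost from Tet2-/- to Ep300Δ/ΔTet2-/- were Bcl2l11 and Bax, both death genes, in a step in which 10.2% of acetylated coding promoters were lost. These 2 were also lost from Ep300Δ/Δ to Ep300Δ/ΔTet2-/-, a step in which 8.42% of coding promoters lost acetylation, and the comparisons share the Ep300Δ/ΔTet2-/- library. Over all coding promoters acetylated in WT, Ep300Δ/Δ and Tet2-/- cells, 5.69% had no peak in Ep300Δ/ΔTet2-/- cells.

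Bcl2l11, whose product BIM binds the survival proteins directly (ENSMUSG00000027381.16, mm10 chromosome 2, 128126038 to 128162547), lost 5 of 6 H3K27ac regions (83.3%, interval 35.9 to 99.6) from Tet2-/- to Ep300Δ/ΔTet2-/- cells, an interval that held the 37.8% of all. From Ep300Δ/Δ to Ep300Δ/ΔTet2-/- it lost 5 of 6 as well, against 31.2% of all, which lay below the interval. Its promoter carried 3 separate H3K27ac regions, centered 0.2, 1.0 and 2.0 kb from the start, in WT, Ep300Δ/Δ and Tet2-/- cells and none in Ep300Δ/ΔTet2-/- cells. Each list gives a fold enrichment over the H3 library. For the first region it was 6.35 in WT, 4.03 in Ep300Δ/Δ and 5.88 in Tet2-/- cells. Folds can be ranked within a list but not compared as amounts between lists, and these placed the peak in the top 53.6%, 78.1% and 57.0% of its list. An intronic region 27.4 kb from the start followed the same pattern, with folds of 5.71, 4.07 and 4.97 and no peak in Ep300Δ/ΔTet2-/- cells. The only H3K27ac peak left there lay 40.9 kb from the start, beyond the end of the gene, and its fold placed it in the top 92.7%, 95.2%, 68.0% and 57.6% of the 4 lists. H3K4me3 at the same promoter was present in all 4 lists, with folds of 57.8, 34.5, 49.9 and 36.5. Of the coding promoters with both marks in Tet2-/- cells, 9.38% likewise lost H3K27ac and kept H3K4me3 in Ep300Δ/ΔTet2-/- cells.

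Bax, which encodes a pore-forming effector (ENSMUSG00000003873.11, mm10 chromosome 7, 45461697 to 45466898), lost the single H3K27ac region at its promoter. This region had folds of 3.66 in WT, 4.29 in Ep300Δ/Δ and 3.37 in Tet2-/- cells, in the top 91.2%, 73.0% and 93.6% of the lists, and was among the weakest promoter peaks of the 10 genes. H3K4me3 at the Bax promoter had folds of 34.2, 47.6, 23.6 and 18.8 and was called in all 4 genotypes. When both lists were restricted to peaks that reached 5 in −log10 q, only Bcl2l11 of the 10 promoters was lost from Tet2-/- to Ep300Δ/ΔTet2-/- cells, and Bcl2 and Bcl2l11 were lost from WT to Ep300Δ/Δ. When the 4 lists were cut to the length of the shortest, Bcl2l11 alone remained as lost in the Tet2-/- step.

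The 2 promoters that lost acetylation are printed from RefSeq (GRCm38.p6) as the 250 bases before the start, 5′ to 3′ along the gene, since they were the 2 of the 10 that had a peak in each list but that of Ep300Δ/ΔTet2-/- cells. Capitals mark matches, on either strand, to consensus letters of the ETS (CCGGAAGT), RUNX (TGTGGT), MYB (CAACTG), AP-1 (TGACTCA), E-box (CACGTG) and GATA (letters AGATAA) families, and a p53 response element without spacer was also searched. The Bcl2l11 promoter, at chr2:128125788-128126037 on the plus strand, held no match. Of its bases 72.0% were G or C, against a median of 52.4% over 32851 promoters. These bases end at the gene start. The nearest H3K27ac peak of this promoter began past it, at 0.02 kb in WT, 0.08 kb in Ep300Δ/Δ and 0.01 kb in Tet2-/- cells. The printed stretch therefore lay outside the regions that lost acetylation. The other RefSeq promoter of Bcl2l11, at chr2:128127325-128127624, is not printed. The Bax promoter, at chr7:45466899-45467148 on the minus strand, held 1 E-box, which 6.02% of all promoters of this length held. A match is a run of letters, and no binding was measured here.
Bcl2l11 promoter: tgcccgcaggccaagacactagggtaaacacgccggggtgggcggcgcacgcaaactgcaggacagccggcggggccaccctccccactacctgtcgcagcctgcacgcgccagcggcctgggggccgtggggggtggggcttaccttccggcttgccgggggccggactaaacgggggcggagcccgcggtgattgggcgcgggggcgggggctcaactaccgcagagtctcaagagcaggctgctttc
Bax promoter: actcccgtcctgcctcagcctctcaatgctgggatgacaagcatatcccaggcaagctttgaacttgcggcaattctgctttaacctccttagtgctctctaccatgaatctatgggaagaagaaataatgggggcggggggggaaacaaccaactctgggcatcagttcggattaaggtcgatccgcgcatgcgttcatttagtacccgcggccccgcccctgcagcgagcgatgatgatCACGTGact

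**Figure D3:**
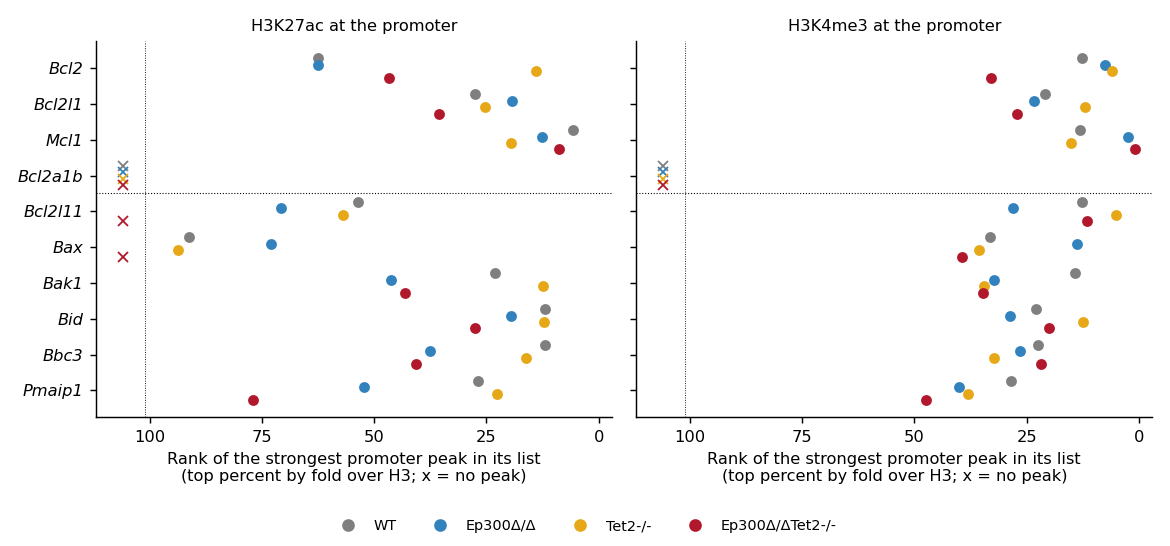
Rank of the strongest H3K27ac (left) and H3K4me3 (right) peak at each promoter within its list, as the top percent by fold over H3, with stronger peaks to the right, 1 point per genotype, and crosses where no peak was called. Bcl2l11 and Bax have no H3K27ac peak in Ep300Δ/ΔTet2-/- cells and keep H3K4me3, and Bcl2a1b has neither mark in any genotype.

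The other promoters kept their acetylation with changes of rank. Mcl1 had the strongest promoter peak of the survival genes in WT, with a fold of 25.9, and stood in the top 5.82% in WT, 12.6% in Ep300Δ/Δ, 19.5% in Tet2-/- and 8.86% in Ep300Δ/ΔTet2-/- cells. The promoter of Bcl2l1 had folds of 10.6, 11.6, 11.04 and 9.03, in the top 27.6%, 19.2%, 25.4% and 35.5% of the lists. Bcl2 stood out in Tet2-/- cells, with a fold of 15.9 (top 14.0%), while its strongest promoter peak was in the top 62.4% in WT and Ep300Δ/Δ and the top 46.7% in Ep300Δ/ΔTet2-/- cells. The lists differ in length, and the median coding promoter shifted by 3.49 points toward weaker ranks from WT to Ep300Δ/Δ and by 4.39 points in the Tet2-/- step. Among death genes, the promoter of Pmaip1 stood at the top 26.9% in WT and 52.3% in Ep300Δ/Δ, and at 22.7% in Tet2-/- and 76.9% in Ep300Δ/ΔTet2-/- cells. In the same order Bak1 went from 23.0% to 46.2% and from 12.4% to 43.2%, Bid from 11.9% to 19.5% and from 12.2% to 27.5%, and Bbc3 from 11.9% to 37.7% and from 16.1% to 40.6%. The strongest promoter peak ranked lower in 6 of 9 genes from WT to Ep300Δ/Δ and in 6 of 7 from Tet2-/- to Ep300Δ/ΔTet2-/-, against 65.7% and 65.2% of all coding promoters with a peak in both lists. All 9 promoters had H3K4me3 and H3K4me1 in the 4 genotypes, as did 97.2% and 86.1% of the coding promoters with that mark in WT.

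Active enhancers, meaning distal H3K27ac peaks on an H3K4me1 peak of the same genotype, numbered 31 in WT, 24 in Ep300Δ/Δ, 28 in Tet2-/- and 16 in Ep300Δ/ΔTet2-/- cells at the 10 genes. These were 77.4%, 90.3% and 51.6% of the WT number, whereas the whole lists held 9505, 5093, 6548 and 3720 and so 53.6%, 68.9% and 39.1% of theirs. These are counts of peaks without an interval. As merged distal regions, the intervals of the share lost held the whole-list value in both Ep300 steps (30.8 to 66.5 against 62.5%, 33.9 to 72.5 against 61.9%). From WT to Tet2-/- cells the interval lay just below it (20.4 to 54.9 against 55.3%). Survival genes had 12, 11, 13 and 7 and death genes 19, 13, 15 and 9. Bcl2 had 3, 0, 2 and 0, and Bak1 3, 0, 3 and 1, so both had none in Ep300Δ/Δ cells. Mcl1 had 7, 8, 8 and 6 and Pmaip1 9, 8, 8 and 4. Bax and Bid had none in any genotype.

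Bcl2 (ENSMUSG00000057329.7, mm10 chromosome 1, 106538178 to 106714274, minus strand) had no acetylated region beyond its end in either genotype without Ep300. A pair of intergenic regions 196.3 and 198.1 kb from the start, past the end of the gene, had folds of 7.41 and 10.3 in WT and 4.62 and 2.64 in Tet2-/- cells and no peak in Ep300Δ/Δ or Ep300Δ/ΔTet2-/- cells. Over all lists 6.54% of H3K27ac regions were present in WT and Tet2-/- cells only, and 8 of 83 regions (9.64%) at the 10 genes had this pattern. The region at 198.1 kb was the strongest distal region lost from WT to Ep300Δ/Δ at the 10 genes, in the top 29.0% of the WT list, but stood at the top 98.8% of the Tet2-/- list. H3K4me1 was called at both regions in all 4 genotypes. An intronic region 134.6 kb from the start, with a fold of 7.07, was present in WT only. Within the gene, near the annotated start of D630008O14Rik, a weak region at 172.1 kb was called in WT and Ep300Δ/ΔTet2-/- cells only, with folds of 3.15 and 3.81.

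Fewer H3K4me1 peaks were called at Bcl2 without Ep300, and fewer over the whole lists as well. The whole lists held 107392 H3K4me1 peaks in WT, 90738 in Ep300Δ/Δ, 98069 in Tet2-/- and 93465 in Ep300Δ/ΔTet2-/- cells. The window of 236.1 kb held 58 H3K4me1 peaks in WT, 36 in Ep300Δ/Δ, 59 in Tet2-/- and 42 in Ep300Δ/ΔTet2-/- cells, covering 32.4, 19.2, 39.7 and 26.7 kb. Of these regions 27 of 55 were lost from WT to Ep300Δ/Δ (49.1%, interval 35.4 to 62.9) and 24 of 57 from Tet2-/- to Ep300Δ/ΔTet2-/- (42.1%, 29.1 to 55.9), against 36.7% and 31.1% of all H3K4me1 regions, values that both intervals held. Over the 10 genes 68 of 210 (32.4%) and 55 of 188 (29.3%) were lost, with intervals that held the values of all regions. Gains over the 10 genes were 25 of 167 (15%, 9.93 to 21.3) from WT to Ep300Δ/Δ, below the 24.1% of all, and 31 of 164 (18.9%, 13.2 to 25.7) in the Tet2-/- step, against 23.4%. In the first of these, survival genes gained 17 of 84 (20.2%, 12.3 to 30.4) and death genes 8 of 83 (9.64%, 4.25 to 18.1), intervals that overlapped, and that of the death genes lay below the value of all. From Ep300Δ/Δ to Ep300Δ/ΔTet2-/- 31 of 163 were lost (19%, 13.3 to 25.9), just below the 26.2% of all. Loss of Tet2 alone took 9 of 52 H3K4me1 regions from Bcl2 (17.3%, 8.23 to 30.3), against 28.6% of all. It took 17 of 95 from all survival genes (17.9%, 10.8 to 27.1) and 31 of 104 from death genes (29.8%, 21.2 to 39.6). The interval of the survival genes lay below the 28.6%, as did that of Mcl1, with 1 of 20 (5.0%, 0.127 to 24.9). Bcl2l1 had more H3K4me1 peaks without Ep300, with 27 peaks in WT and 34 in Ep300Δ/Δ, 24 in Tet2-/- and 29 in Ep300Δ/ΔTet2-/- cells. There 3 of 25 regions were lost (12%, 2.55 to 31.2) and 11 of 33 gained (33.3%, 18 to 51.8, against 24.1% of all) from WT to Ep300Δ/Δ, and 4 of 22 were lost (18.2%, 5.19 to 40.3) and 6 of 24 gained (25.0%, 9.77 to 46.7, against 23.4% of all) in the Tet2-/- step. The interval of the share lost at Bcl2l1 after Ep300 deletion alone lay below the value of all regions, as did that of Bax, where 0 of 10 H3K4me1 regions were lost (0.0 to 30.8).

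Bcl2l1 (ENSMUSG00000007659.18, mm10 chromosome 2, 152780668 to 152831728, minus strand) kept 1 strong intronic region 42.2 kb from the start in every genotype. Its folds were 11.5, 10.3, 9.19 and 14.3, in the top 24.9%, 23.4%, 32.8% and 17.8% of the lists. The other distal H3K27ac regions of this gene were weak, with folds of 2.71 to 3.22, and each was called in 1 genotype. In total Bcl2l1 had 5, 6, 6 and 3 H3K27ac peaks.

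Mcl1 (ENSMUSG00000038612.16, mm10 chromosome 3, 95658788 to 95663176, plus strand) was flanked by acetylated regions on both sides in every genotype. Upstream, the region 6.5 kb before the start had folds of 16.0, 10.1, 11.3 and 10.9 and the one 8.6 kb before it 12.4, 5.35, 14.3 and 7.38. Downstream, the region at 9.9 kb had folds of 16.0, 11.6, 14.3 and 13.2. Its neighbor at 10.9 kb had folds of 9.71, 7.78 and 5.79 and no peak in Ep300Δ/ΔTet2-/- cells, where H3K4me1 remained, and outside Pmaip1 it was the strongest distal region lost from Tet2-/- to Ep300Δ/ΔTet2-/-. A weaker region 4.7 kb before the start, with folds of 4.46 and 4.86, was called in WT and Tet2-/- cells only, and one 13 kb before it in WT and Ep300Δ/Δ cells only.

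Bcl2a1b (ENSMUSG00000089929.1, mm10 chromosome 9, 89199209 to 89207827) had no H3K27ac peak in its window in any genotype. Its single H3K4me3 peak in each list was at the promoter of the neighbor Mthfs. This absence is uncertain, because the gene has near-identical copies and the authors filtered reads on mapping quality, an effect that was not tested. Of the 50-bp words of its gene body 57.3% also occur in Bcl2a1a, Bcl2a1c or Bcl2a1d, and for Bcl2a1d, at 88723285 to 88731914 of the same chromosome, the share was 60.2%. Within 3000 bp of Bcl2a1a and Bcl2a1c no list held a peak of any mark. Near Bcl2a1d there was 1 H3K27ac peak in Ep300Δ/ΔTet2-/- cells, 1 H3K4me1 peak in WT, and 1 H3K4me3 peak in each genotype except WT.

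Among the BH3-only genes, Bbc3 (ENSMUSG00000002083.13, mm10 chromosome 7, 16308393 to 16318205, plus strand) had a strong intergenic region 13.3 kb before its start. It was the strongest distal region of the 10 genes present in all 4 lists, with folds of 23.2, 18.9, 22.6 and 22.7, in the top 7.41%, 7.15%, 6.62% and 6.91%. It also carried H3K4me3, with folds of 23.3, 23.3, 15.3 and 29.0. A weak region 11.2 kb before the start was present in Ep300Δ/Δ and Tet2-/- cells only, with folds of 4.76 and 2.78. In Ep300Δ/ΔTet2-/- cells a peak with a fold of 3.83 was gained 32.6 kb from the start, in an intron of Sae1. A promoter region of Bbc3, 0.7 kb from the start, was called in every genotype but Ep300Δ/ΔTet2-/-, and 3 others were called in all.

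A set of 4 regions is printed with 100 bases on either side of the summit, plus strand of mm10, since outside Pmaip1 they were the strongest distal regions lost in either Ep300 step, the strongest kept throughout, and the 1 gained in the Tet2-/- step. The Bcl2 region at chr1:106515962-106516162 was lost with Ep300 in both backgrounds, the Mcl1 region at chr3:95669337-95669537 was absent from Ep300Δ/ΔTet2-/- cells alone, the Bbc3 region at chr7:16295146-16295346 was constant, and the Sae1 intron at chr7:16340894-16341094 was gained. Capitals mark the consensus letters given above. The Sae1 intron held 3 RUNX matches and the other windows no match to the 7 motifs. In the H3K27ac list of Ep300Δ/ΔTet2-/- cells 11.4% of summit windows held a RUNX match. Of the 72 WT summits at the 10 genes 9 held a RUNX match (12.5%, against 12.9% of the WT list), 4 a MYB match (5.56%, against 9.30%), 4 an AP-1 match (5.56%, against 3.22%), 3 a GATA match (4.17%, against 5.45%), 1 an ETS match (1.39%, against 0.779%), and none an E-box (3.74% of the list) or a p53 element, which 2 of 29659 windows held.
Bcl2 region 198.1 kb from the start: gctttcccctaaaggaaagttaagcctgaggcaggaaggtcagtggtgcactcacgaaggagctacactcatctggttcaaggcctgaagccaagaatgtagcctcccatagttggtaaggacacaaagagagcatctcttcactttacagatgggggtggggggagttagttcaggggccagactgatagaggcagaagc
Mcl1 region 10.9 kb from the start: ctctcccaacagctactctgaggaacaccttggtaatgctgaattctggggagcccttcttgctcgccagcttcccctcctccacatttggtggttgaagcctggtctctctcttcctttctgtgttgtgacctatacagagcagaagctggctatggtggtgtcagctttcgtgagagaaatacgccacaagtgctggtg
Bbc3 region 13.3 kb before the start: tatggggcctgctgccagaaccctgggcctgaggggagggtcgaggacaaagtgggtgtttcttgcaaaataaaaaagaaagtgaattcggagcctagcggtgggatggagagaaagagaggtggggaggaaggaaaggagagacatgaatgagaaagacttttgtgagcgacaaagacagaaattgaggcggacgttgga
Sae1 intron 32.6 kb from the Bbc3 start: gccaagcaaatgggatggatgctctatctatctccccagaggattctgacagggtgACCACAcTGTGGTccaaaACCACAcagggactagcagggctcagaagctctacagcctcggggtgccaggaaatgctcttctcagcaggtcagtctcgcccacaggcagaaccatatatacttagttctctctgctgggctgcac

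Pmaip1 (ENSMUSG00000024521.8, mm10 chromosome 18, 66458533 to 66465565, plus strand), which encodes NOXA, had more active enhancers in WT than any other of the 10 genes. Between 9.3 and 20.2 kb from the start, past the end of the gene, WT cells had acetylated regions at 9.3, 9.9, 12.7, 15.7, 17.4, 18.9, 19.4 and 20.2 kb. Those at 9.3, 9.9, 17.4 and 18.9 kb were present in every genotype but Ep300Δ/ΔTet2-/-. The region at 17.4 kb, with folds of 8.69 in WT, 3.43 in Ep300Δ/Δ and 7.92 in Tet2-/- cells, was the strongest of them in Tet2-/- cells. Those at 12.7, 19.4 and 20.2 kb were kept throughout, with folds of 22.7, 10.7, 8.23 and 11.8 for the first. The WT fold of this region was in the top 7.70% of its list and the Tet2-/- fold in the top 37.8%. A region 20.8 kb before the start was kept as well, with folds of 9.01, 14.5, 12.9 and 4.79. H3K4me1 was called at 9.3, 9.9 and 17.4 kb in all 4 genotypes.

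**Figure D4:**
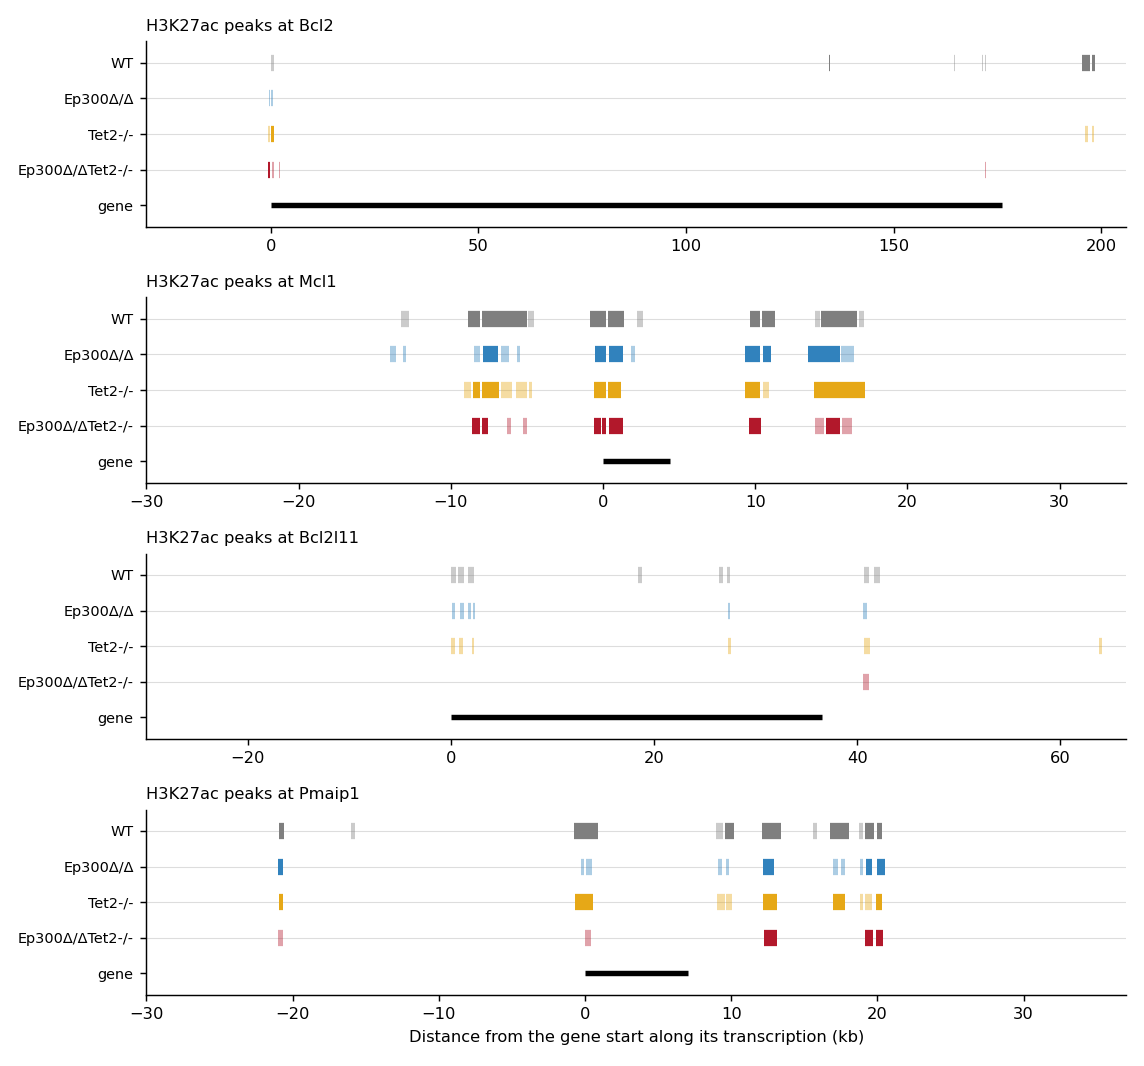
H3K27ac peaks at Bcl2, Mcl1, Bcl2l11 and Pmaip1 in the 4 genotypes, against distance from the gene start in kb along the direction of transcription. Dark blocks are peaks at or above the median fold of their list, pale blocks those below it, and the black bar is the gene. Bcl2 has no peak at 196.3 and 198.1 kb without Ep300, Bcl2l11 keeps 1 of its peaks in Ep300Δ/ΔTet2-/- cells, and Pmaip1 keeps the blocks at 12.7, 19.4 and 20.2 kb.

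Bid and Bak1 each had regions that were called in neither genotype without Ep300. From WT to Ep300Δ/Δ Bak1 lost 4 of 6 regions (66.7%, 22.3 to 95.7, against 39.7% of all), and in the Tet2-/- step Bak1 lost 2 of 6 (33.3%) and Bid 3 of 6 (50%, 11.8 to 88.2), near the 37.8% of all. Bid (ENSMUSG00000004446.12, mm10 chromosome 6, 120891930 to 120916853, minus strand) had a broad promoter peak in every genotype, with folds of 18.1, 11.4, 17.1 and 10.8. Intronic regions 8.3 and 9.0 kb from its start, close to the annotated start of Gm17812 and so counted as promoter regions, were present in WT and Tet2-/- cells only, with folds of 5.37 and 7.67 in WT. Bak1 (ENSMUSG00000057789.14, mm10 chromosome 17, 27019810 to 27029009, minus strand) had a promoter peak with folds of 12.1, 6.28, 16.9 and 7.77. Regions 14.1 kb before its start and 23.3 kb after it, the latter in an intron of Ggnbp1, were present in WT and Tet2-/- cells only, with folds of 3.02 and 4.51 in WT. A region 17.0 kb after the start was called in Tet2-/- and Ep300Δ/ΔTet2-/- cells only.

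Merging the 4 lists gave 83 H3K27ac regions at the 10 genes, 28 near survival and 55 near death genes. Regions present in all 4 genotypes were 29 (34.9%, against 35.5% of all), and those in WT only were 19 (22.9%, against 21.1% of all). A further 11 regions (13.3%, interval 6.81 to 22.5) were present in every genotype but Ep300Δ/ΔTet2-/-, against 6.48% of all. Of these 10 lay near death genes, 4 each at Bcl2l11 and Pmaip1 and 1 each at Bax and Bbc3, and 1 near a survival gene, Mcl1. This was 18.2% of 55 death gene regions (9.08 to 30.9) and 3.57% of 28 survival gene regions (0.0904 to 18.3), and the intervals overlapped. In the Tet2-/- list 1 of these 11 regions, the one of Pmaip1 at 17.4 kb, was above the median fold. With all 4 lists cut to the length of the shortest, 2 of 57 regions (3.51%) had this pattern, 1 at Bcl2l11 and 1 at Mcl1, against 3.82% of all. With 5 as the lowest −log10 q it was 1 of 56 (1.79%), at Mcl1, against 4.36% of all.

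Lost regions at the 10 genes came mostly from the lower part of the lists, as they did over the whole lists. Of the 30 regions lost from WT to Ep300Δ/Δ 6 were in the upper part (above the median) of the WT list by fold, against 16.2% of all lost regions, and of the 27 lost from Tet2-/- to Ep300Δ/ΔTet2-/- 2 were in the upper part of the Tet2-/- list, against 15.8% of all. H3K4me1 was called in both genotypes compared at 11 of 16 distal regions that lost acetylation in the first step, against 73.5% of all such regions, and at 14 of 15 in the second, against 77.0%. H3K4me3 regions at the 10 genes were lost in 3 of 36 cases (8.33%, against 15.4% of all) and 4 of 41 cases (9.76%, against 13.3% of all).

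Other genes of the mitochondrial death pathway, 26 in a list of caspases, the apoptosome, p53 regulators and further family members, had H3K27ac at 19, 20, 19 and 18 promoters. In all 4 genotypes 18 of the 26 were acetylated, beside 7 of the 10 genes and 40.0% of all coding promoters. The promoter of Diablo, an antagonist of caspase inhibitors, was the 1 lost in the Tet2-/- step, and that of Bcl2l14 was gained from WT to Ep300Δ/Δ. The windows of the 26 genes lost 27 of 99 H3K27ac regions (27.3%, 18.8 to 37.1) from WT to Ep300Δ/Δ, below the 39.7% of all, and 28 of 85 (32.9%, 23.1 to 44.0) from Tet2-/- to Ep300Δ/ΔTet2-/-, against 37.8%. Promoter regions made up 79 of the 99 in this list and 38 of the 71 at the 10 genes. By place, where 26.5% of all promoter and 62.5% of all distal regions were lost in the first step and 26.8% and 61.9% in the second, the pathway windows lost 15 of 79 promoter regions (19%, 11 to 29.4) and 12 of 20 distal regions (60.0%, 36.1 to 80.9) in the first step, and the 10 genes 14 of 38 (36.8%, 21.8 to 54.0) and 16 of 33 (48.5%, 30.8 to 66.5). In the second step the pathway lost 19 of 74 (25.7%) and 9 of 11 (81.8%, 48.2 to 97.7), and the 10 genes 12 of 35 (34.3%) and 15 of 28 (53.6%, 33.9 to 72.5). All these intervals of the pathway and the 10 genes overlapped. Gains in the pathway windows in the second step were 1 of 56 promoter regions (1.79%, 0.0452 to 9.55, against 10.1% of all) and 8 of 10 distal regions (80.0%, 44.4 to 97.5, against 30.6% of all).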

How the data were processed

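Lin- bone marrow cells of 4 genotypes were profiled for H3K27ac, H3K4me1 and H3K4me3, with 1 library for each. Of 20 samples, those for H3 and H3K27me3 were not analysed here. Per the labels and methods, the authors used cutadapt 1.15 for trimming and BWA 0.7.13 for alignment to mm10, removed duplicates with Picard, filtered on mapping quality, and called peaks with MACS2 2.1.1.20160309 against the H3 library at a stated q of 0.05. The lists hold no scaling by the Drosophila spike-in as far as described. For each peak the authors deposited a score (not used here), a fold ratio over H3, and a p-value and q-value, each as its −log10. Some deposited peaks exceed the stated q, 0 to 7 per H3K27ac list at the 10 genes. Labels call the libraries single-end and the methods paired-end, and the H3 antibody differs between them.

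The unit of comparison was the merged region, lost or gained without an overlap of 1 bp, as in the methods. GENCODE M21 on GRCm38 gave genes and starts. Some of the named regions are the strongest lost, gained or constant distal region of a gene and step. Others, promoter regions among them, were named without a fixed rule. Members and lists were chosen with earlier results of these data known. Values of some single marker genes are not reported here. No test between genotypes was possible. Counts equaled bedtools 2.31.1 in 12 of 12 comparisons, and 20 of 20 simulated pairs of lists were recovered. Promoter sequences came from RefSeq for 9 of the 10 genes. Alternatives covered overlap, q, list length, fold, window, gene assignment and promoters. Python 3.11.15, pandas 2.3.3, numpy 2.4.6, scipy 1.17.1 and matplotlib 3.10.9 were used.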

Additional observations from a re-analysis of the deposited data

Results flagged for a closer look

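The number of called peaks changed in opposite directions after Ep300 deletion on the 2 backgrounds at 2 genes, with 1 library each, and the difference was not tested. At Bcl2l1 the number of H3K27ac peaks changed by 1 from WT to Ep300Δ/Δ (5 to 6) and by -3 from Tet2-/- to Ep300Δ/ΔTet2-/- (6 to 3). Counted as merged regions, Bcl2l1 lost 2 of 5 in the first step (39.7% of all H3K27ac regions) and 3 of 6 in the second (37.8% of all) and gained 0 of 3 in each (12.8% and 15% of all), so the opposite signs are those of peak numbers alone. At Bid the number of H3K4me1 peaks changed by -6 from WT to Ep300Δ/Δ (14 to 8) and by 1 from Tet2-/- to Ep300Δ/ΔTet2-/- (9 to 10). As merged regions, 8 of 14 were lost (57.1%, interval 28.9 to 82.3, against 36.7% of all H3K4me1 regions) and 1 of 7 gained (24.1% of all) in the first step, and 2 of 9 lost (31.1% of all) and 3 of 10 gained (23.4% of all) in the second, and all these intervals held the value of all regions.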

How the results depend on the processing

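With 1 library per genotype and mark and no depth, a region just under the threshold of a list counts as absent. No paired analysis was possible because each group has 1 sample and no result comes from a test. Of 191 alternative values, 141 lay within the 95% interval (or, for counts, within 1.5 times) of the value reported and 50 did not, and where they did not the cause was not tested beyond what the alternative itself removes. Lost and gained name the first and second list of a step, and the percentage of the whole lists under the same setting is given in places.

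With a gap of up to 500 bp counted as shared, H3K27ac losses were 27% from Tet2-/- to Ep300Δ/ΔTet2-/- (whole lists 29.5%), and 14.3% there at survival genes. They were 24.1% from Ep300Δ/Δ to Ep300Δ/ΔTet2-/- (whole lists 21.3%). Gains from WT to Ep300Δ/Δ were 2.13% (whole lists 8.04%). H3K4me1 losses were 19.5% (whole lists 25.1%) and gains 6.59% (interval 3.33 to 11.5, whole lists 15.8%) from WT to Ep300Δ/Δ. From Tet2-/- to Ep300Δ/ΔTet2-/- they were 18.1% (21.3%) and 9.15% (5.21 to 14.6, whole lists 15.9%). H3K4me1 gains in both steps were thus below those of the whole lists. H3K4me3 gains from WT to Ep300Δ/Δ were 0.0% (whole lists 8.0%). With a −log10 q of at least 5, H3K27ac gains were 0.0% in both Ep300 steps. Whole lists gained 4.46% from WT and 11.7% from Tet2-/- cells, and the interval in the Tet2-/- step (0.0 to 11.2) lay just below. Losses were 9.38% from Ep300Δ/Δ to Ep300Δ/ΔTet2-/- (whole lists 16.4%). H3K4me1 losses were 47.5% from WT (whole lists 51.0%) and 36.9% from Tet2-/- cells (whole lists 44.1%). H3K4me3 gains were 0.0% in the Tet2-/- step (whole lists 5.02%). The promoters lost were then 2 from WT to Ep300Δ/Δ and 1 in the Tet2-/- step. Regions in all but Ep300Δ/ΔTet2-/- were 1.79% at the 10 genes and 0.0% at death genes (whole lists 4.36%).

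With lists of equal length, H3K27ac losses were 25.6% from WT to Ep300Δ/Δ (whole lists 24.1%), and 20% there at survival genes. They were 22.2% from Tet2-/- to Ep300Δ/ΔTet2-/- (whole lists 23.5%), and 21.4% there at death genes. From Ep300Δ/Δ to Ep300Δ/ΔTet2-/- they were 24.4% (whole lists 21.4%). The promoters lost in the Tet2-/- step were 1. Regions in all but Ep300Δ/ΔTet2-/- were 3.51% at the 10 genes and 2.63% at death genes (whole lists 3.82%).

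A further setting took only regions with a peak above the median fold of their own list. The other list stayed whole, so lost or gained meant no peak of any strength in it. H3K27ac losses were then 17.6% from WT to Ep300Δ/Δ (whole lists 12.9%), with 23.1% at survival and 14.3% at death genes. From Tet2-/- to Ep300Δ/ΔTet2-/- they were 6.90% (whole lists 12%), with 0.0% at survival and 10.5% at death genes. They were 8.82% from WT to Tet2-/- and 8.0% from Ep300Δ/Δ to Ep300Δ/ΔTet2-/-. H3K27ac gains were 0.0% except from WT to Tet2-/-, at 3.57% (whole lists 4.22%). Whole lists gained 1.81% from WT to Ep300Δ/Δ, 2.74% in the Tet2-/- step and 4.15% from Ep300Δ/Δ to Ep300Δ/ΔTet2-/-. H3K4me1 losses and gains were 18.1% and 8.42% from WT to Ep300Δ/Δ (whole lists 23.8% and 14.6%). In the Tet2-/- step they were 16.0% and 9.38% (whole lists 19.9% and 12.8%). H3K4me3 losses and gains were 0.0% in both steps, where the whole lists had 0.112% and 0.113%, then 0.0439% and 0.00758%. Outside promoters H3K4me3 gains from WT to Ep300Δ/Δ were 0.0%. Outside promoters of coding genes, a setting chosen after seeing the data, H3K27ac losses were 58.5% from WT to Ep300Δ/Δ (whole lists 60.8%) and 56.2% from Tet2-/- to Ep300Δ/ΔTet2-/- (59.3%). The settings for the promoters lost and for regions in all but Ep300Δ/ΔTet2-/- were also chosen after seeing the data. Windows of 10 or 100 kb and assignment by the nearest coding start gave values within the main intervals throughout. By nearest coding start, death genes lost 20 of 34 H3K27ac regions in the Tet2-/- step (58.8%, 40.7 to 75.4), above the 37.8% of all. By the same rule the 10 genes lost 23 of 45 from Ep300Δ/Δ to Ep300Δ/ΔTet2-/- (51.1%, 35.8 to 66.3), above the 31.2% of all. The other H3K27ac losses and gains under these settings had intervals that held the value of all.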
